A study of Mus musculus with 7 samples.

Results

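The transcripts of 10 imprinted genes were followed in the nuclei of cultured BB-p53n OPCs. The genes were *Meg3*, *Rian*, *Mirg* and *Dlk1* of 1 locus on chromosome 12, *H19* and *Igf2* of 1 locus on chromosome 7, and *Peg3*, *Igf2r*, *Grb10* and *Plagl1* of 4 further loci. They were chosen by symbol as well-known imprinted genes and not by a rule on their values, but with earlier results of these data known. They make up 10 of the 33696 genes in the count matrix. BB-p53n OPCs are primary mouse oligodendrocyte progenitor cells (OPCs) that were isolated with an antibody to PDGFRα from early postnatal *Trp53* fl/fl C57BL/6 pups of either sex. They were transduced in culture with a PDGFB-IRES-CRE retrovirus, which deletes *Trp53* and overexpresses PDGFB, and nuclei were isolated from the culture with neither the debris removal step nor the filter used for brain tissue. The nuclei were measured by snRNA-seq in 1 library, and 3 early-stage and 3 late-stage tumor samples of the same study were not analysed here. With 1 library and no OPCs without the virus or the deletion, no test between conditions could be run, and every value below describes this culture. All intervals are 95% intervals that cover counting error only. The pups were of an inbred strain, so the counts do not tell the maternal from the paternal allele.

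In genomic imprinting, a gene is expressed mainly from 1 parental allele. This depends on control regions where DNA methylation of 1 allele was set in the germ line and is kept in somatic cells. Imprinted genes lie in clusters in which protein-coding genes and long noncoding RNAs are often expressed from opposite parental alleles under a shared control region. Many of them act on fetal growth, on IGF signaling and on progenitor proliferation, and several remain expressed in neural cells after birth.

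The library held 10047 barcodes, of which 8917 had 2000 to 8000 detected genes and were kept as nuclei. They had between 3153 and 52240 UMIs (unique molecular identifiers, 1 per captured transcript), with a median of 13771, and 141138093 UMIs in all. In the library as a whole the markers of OPCs were abundant, since 8 genes such as *Lhfpl3*, *Ptprz1*, *Olig1* and *Pdgfra* summed to 5369 CPM (UMIs of a gene per 1000000 UMIs). This sum was uneven between the clusters described below, lowest in cluster 1 (1808 CPM) and highest in cluster 0 (7526 CPM). The marker lists of other cell types summed to 452 CPM for astrocytes, led by *Slc1a3*, 163 CPM for oligodendrocytes, 124 CPM for neurons, of which *Syt1* gave 109 CPM, and 0.730 to 9.17 CPM for endothelial, microglial, choroid or ependymal and fibroblast or pericyte genes. Clustering all kept nuclei with the settings that the study states gave 8 re-derived clusters, numbered 0 to 7 by size, with 1810 to 182 nuclei. They were given no cell type names, and they are not the clusters of the study, which describes fewer for this culture.

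Elements that hold an imprint are read from DNA sequence, and the promoters of the 4 members with the most UMIs are shown here. One reader is ZFP57, a zinc finger protein that binds the methylated letters TGCCGC and maintains the imprint. Each stretch is the 250 bases before the transcript start in RefSeq (table of build GRCm38.p6), written 5′ to 3′ on the strand of the gene, with matches to TGCCGC on either strand in capitals.
Peg3: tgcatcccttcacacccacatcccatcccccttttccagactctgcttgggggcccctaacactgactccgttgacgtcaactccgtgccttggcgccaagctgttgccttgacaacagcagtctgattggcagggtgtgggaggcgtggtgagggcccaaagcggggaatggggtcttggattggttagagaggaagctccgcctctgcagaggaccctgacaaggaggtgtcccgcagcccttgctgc
Igf2r: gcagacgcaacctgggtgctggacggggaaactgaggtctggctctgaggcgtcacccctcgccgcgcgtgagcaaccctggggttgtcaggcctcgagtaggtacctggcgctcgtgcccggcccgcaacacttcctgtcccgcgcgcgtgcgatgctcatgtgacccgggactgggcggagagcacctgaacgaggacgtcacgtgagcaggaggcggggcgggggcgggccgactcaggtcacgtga
Meg3: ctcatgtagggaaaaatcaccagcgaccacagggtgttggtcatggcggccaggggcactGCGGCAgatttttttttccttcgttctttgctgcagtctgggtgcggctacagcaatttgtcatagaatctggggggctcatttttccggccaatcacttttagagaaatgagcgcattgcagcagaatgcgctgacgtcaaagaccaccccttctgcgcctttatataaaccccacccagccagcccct
Plagl1: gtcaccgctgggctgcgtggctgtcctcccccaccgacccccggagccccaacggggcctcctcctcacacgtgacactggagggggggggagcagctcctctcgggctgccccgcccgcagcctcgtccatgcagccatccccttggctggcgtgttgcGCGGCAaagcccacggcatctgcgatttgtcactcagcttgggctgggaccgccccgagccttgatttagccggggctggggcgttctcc
Each of these sequences matched GRCm39 at 1 place. The *Peg3* stretch lies at chr7:6733419-6733668 on the minus strand, the *Igf2r* stretch at chr17:12988594-12988843 on the minus strand, the *Meg3* stretch at chr12:109506629-109506878 on the plus strand and the *Plagl1* stretch at chr10:12966326-12966575 on the plus strand. The first 3 lie within 50 bases of the gene start in GENCODE, whereas the *Plagl1* start in RefSeq is 30328 bases inside the annotated gene. *Meg3* and *Plagl1* each held the motif once, as GCGGCA on the printed strand, beginning at position -190 and at position -90 from the RefSeq start. *Peg3* and *Igf2r* did not hold it in this window. Of 32544 RefSeq promoters of 300 bases (250 before to 50 after the start), 11.7% held the motif on either strand, against 3 of the 9 members that had an entry. The third was *Grb10*, with the match at position 24 after the start. A match of these letters is a description and not a binding site, and methylation was not measured. The windows were taken as promoters, and control regions elsewhere in the loci were not searched. Presence or absence of the motif here says nothing about those regions.

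Over the library, 8 of the 10 members had at least 1 UMI and 2 were listed at 0. *Peg3*, which encodes a zinc finger protein expressed from the paternal allele, had 14287 UMIs or 101 CPM (exact Poisson interval 99.6 to 103). *Igf2r*, which encodes the receptor that carries IGF2 to lysosomes for degradation and is maternally expressed in most mouse tissues, had 5319 UMIs or 37.7 CPM (36.7 to 38.7). These 2 were the only members above 20 CPM, a level that 21.8% of all genes in the matrix reached.

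The next 5 members lay between 2.30 and 4.30 CPM. *Meg3*, a maternally expressed noncoding RNA, had 607 UMIs or 4.30 CPM (3.97 to 4.66). *Plagl1*, a paternally expressed zinc finger gene that regulates other imprinted genes, had 501 UMIs or 3.55 CPM (3.25 to 3.87). *Dlk1*, a paternally expressed gene for a transmembrane ligand related to the Notch ligands, had 390 UMIs or 2.76 CPM (2.50 to 3.05). *Grb10* encodes an adaptor protein that inhibits insulin and IGF receptor signaling, with a maternal promoter in most tissues and a paternal one in neurons. It had 336 UMIs or 2.38 CPM (2.13 to 2.65). *Rian*, the maternally expressed RNA downstream of *Meg3* that hosts snoRNAs and miRNAs, had 325 UMIs or 2.30 CPM (2.06 to 2.57). *Mirg*, which lies farther downstream and hosts a large miRNA group, had 23 UMIs or 0.163 CPM (0.103 to 0.245).

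Levels were also ordered per length, although a UMI stands for a captured transcript, so counts need not grow with the length of a gene. Per kb of gene span the order was *Peg3* at 3.81 CPM per kb, *Igf2r* at 0.432, *Dlk1* at 0.263, *Meg3* at 0.137, *Plagl1* at 0.0499, *Rian* at 0.0398, *Grb10* at 0.0220 and *Mirg* at 0.00827 CPM per kb, with no overlap of the counting intervals of neighbours in this order. Per kb of exons *Plagl1* stood above *Meg3* and *Grb10* above *Rian*. On that scale *Dlk1* at 0.458 (0.414 to 0.506) and *Plagl1* at 0.415 CPM per kb (0.379 to 0.453) did not differ beyond counting error, and neither did *Grb10* at 0.232 (0.208 to 0.258) and *Meg3* at 0.223 CPM per kb (0.205 to 0.241). *Peg3* and *Igf2r* held the top of both orders.

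**Figure D1:**
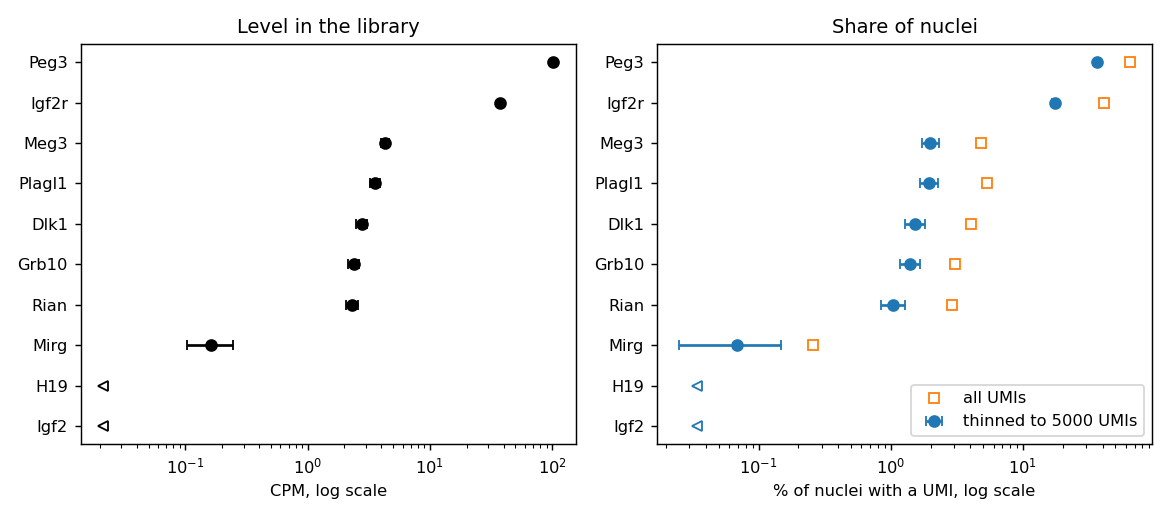
Level of the 10 imprinted genes in the library in CPM (left) and share of nuclei with a UMI in percent (right), both on log axes, with 95% exact Poisson and binomial intervals. Filled points on the right are nuclei thinned to 5000 UMIs and open squares all UMIs. Open triangles mark the limit that a count of 0 allows for H19 and Igf2 (0.0213 CPM and 0.0342% of nuclei).

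*H19*, a maternally expressed noncoding RNA that hosts a miRNA, and *Igf2*, the paternally expressed growth factor of the same locus, had no UMI in the 8917 nuclei. A count of 0 allows up to 0.0213 CPM (3 UMIs in the library) or 0.0342% of 8760 nuclei with a UMI. Over all 10047 barcodes *H19* had 1 UMI and *Igf2* had 0. *Igf2* lies at chr7:142204503-142220694 inside the annotated gene Gm49394 on the same strand, which was also listed at 0, and how reads shared by both were counted is not given in the sources used here, so this 0 is not proof that *Igf2* transcripts were absent. *H19* (chr7:142129262-142133957) had no such overlap on its strand. The list of genes at 0 held 23.1% of all genes in the matrix.

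To compare nuclei at 1 depth, each was thinned at random to 5000 UMIs, which left 8760 nuclei and removed 157 shallower ones. *Peg3* was then found in 36.2% of nuclei (exact binomial interval 35.2 to 37.2) and *Igf2r* in 17.4% (16.6 to 18.2). *Meg3* was found in 2.00% (1.72 to 2.31), *Plagl1* in 1.95% (1.67 to 2.26), *Dlk1* in 1.53% (1.28 to 1.81), *Grb10* in 1.40% (1.17 to 1.67), *Rian* in 1.04% (0.837 to 1.27) and *Mirg* in 0.0685% (0.0251 to 0.149). Without thinning the shares rose with depth to 64.5% for *Peg3*, 41.1% for *Igf2r*, 5.34% for *Plagl1*, 4.79% for *Meg3* and 0.258% for *Mirg*. The variance over the mean of the thinned counts, a measure that rises with the level, was 1.42 for *Peg3*, where counting error alone gives 1, and 1 nucleus held 25 *Peg3* UMIs. The same ratio was 1.23 for *Meg3*, whose highest nucleus held 8 UMIs, 1.15 for *Rian* and for *Grb10*, 1.10 for *Igf2r*, and 1.04 and 1.03 for *Plagl1* and *Dlk1*.

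The locus on chromosome 12 runs on the plus strand of GRCm39 from *Dlk1* (109418749 to 109429262) through *Meg3* (109506877 to 109538165) and *Rian* (109570242 to 109628150) to *Mirg* (109696198 to 109715898). Annotated miRNA genes lie inside *Meg3* (2), *Rian* (4) and *Mirg* (14). The 3 noncoding RNAs were concentrated in re-derived clusters 0 and 3. These 2 clusters held 30.0% of all UMIs but 84.2% of the *Meg3* UMIs, 82.8% of the *Rian* UMIs and 60.0% of the *Dlk1* UMIs.

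From cluster 0 to cluster 7, *Meg3* stood at 7.17, 0.677, 0.395, 19.7, 0.357, 2.50, 0.504 and 1.39 CPM. Cluster 3 was thus the highest and cluster 4 the lowest, 55.1 times apart (exact interval 26.4 to 138), and the intervals of clusters 0, 3 and 5 lay apart from each other and from clusters 1, 2, 4 and 6. *Rian* stood at 4.24, 0.316, 0.148, 9.63, 0.153, 1.80, 0.168 and 0 CPM in the same order. Its highest level exceeded its lowest nonzero one, which rests on 3 UMIs, 65.1 times (21.9 to 319). *Mirg* followed with 15 of its 23 UMIs in cluster 3 and 5 in cluster 0. The 2 larger RNAs therefore ranked the clusters alike at the top (3, then 0, then 5), and the ratio of *Rian* to *Meg3* UMIs stayed near the 53.5 per 100 of the library, with 48.9, 59.2 and 71.9 in these 3 clusters. *Mirg* had 3.79 UMIs per 100 of *Meg3*. Cluster 3 was also the highest for the marker lists of neurons, at 255 CPM against 124 in the library, of astrocytes, at 736 CPM against 452, and of endothelial cells, at 18.6 CPM against 9.17. In the library *Pecam1* alone gave 5.46 of these 9.17 CPM, and *Cldn5* had no UMI. The part of these lists in the levels of *Meg3* and *Rian* was not tested.

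*Dlk1*, expressed from the opposite allele, was higher in the same 2 clusters, but by less. Its levels from cluster 0 to 7 were 5.72, 1.22, 1.48, 5.24, 1.38, 2.15, 1.43 and 2.77 CPM, so that the highest was 4.70 times the lowest (3.10 to 7.37). With 20 neighbors in the clustering, which gave 16 clusters, this ratio was 11.2 (6.15 to 21.7). In cluster 3 *Meg3* was 8.75 times as high as in all other nuclei (7.44 to 10.3), *Rian* 7.27 times (5.81 to 9.09) and *Dlk1* 2.15 times (1.68 to 2.74). In cluster 0 the order was the reverse, with *Dlk1* at 2.72 times (2.20 to 3.35), *Rian* at 2.27 (1.79 to 2.87) and *Meg3* at 1.96 (1.64 to 2.33), although these 3 intervals overlap. Other listed genes of the locus were at or near the limit of detection, with 6 UMIs on *Rtl1*, which lies antisense to *Rian*, and 3 on *Dio3*. *Begain* had 82 UMIs or 0.581 CPM.

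**Figure D2:**
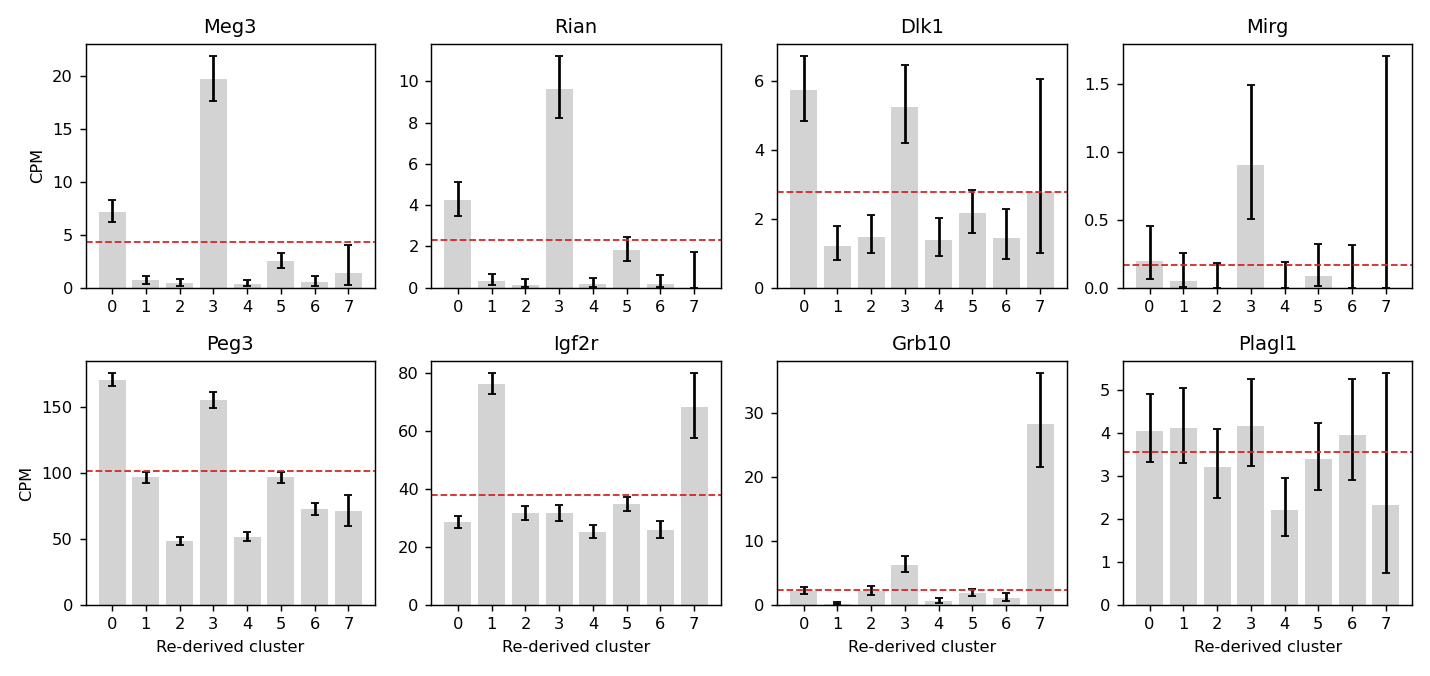
Levels of the 8 detected imprinted genes in the 8 re-derived clusters, in CPM on linear axes that start at 0. Bars are the level of the summed UMIs, error bars 95% exact Poisson intervals and dashed lines the level in the library. Meg3, Rian and Mirg peak in cluster 3, Dlk1 and Peg3 in clusters 0 and 3, Igf2r in clusters 1 and 7, and Grb10 in cluster 7, while Plagl1 is nearly level.

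The genes around the locus departed less than its members. No other protein-coding gene with at least 20 CPM starts within 500 kb of *Meg3*. Within 1000 kb, a window chosen after seeing the data, there were 4. In cluster 3 their ratios to all other nuclei were between 1.07 for *Wars1* and 1.20 for *Ppp2r5c*, where *Meg3* was at 8.75. In cluster 2, where *Meg3* was at 0.0796 (0.0342 to 0.158), they were between 0.584 and 0.812. All 4 lay on the same side of 1 as *Meg3* in clusters 0, 2, 3, 4 and 6, and in cluster 1 they ran from 0.765 for *Evl* to 1.45 for *Wars1*. The whole of chromosome 12, without the listed imprinted genes, took 1.22 times as large a share of UMIs in cluster 3 as in other nuclei and 1.13 times in cluster 0. In cluster 1 this share was the highest of all, at 1.45, yet *Meg3* was at 0.136 (0.0757 to 0.226) and *Rian* at 0.118 (0.0472 to 0.246) times the other nuclei. The *Meg3* value there rests on 15 UMIs in 8 nuclei, and 1 nucleus held 8 of them, which the counting interval does not cover. The share of chromosome 12 and the level of *Meg3* thus pointed in opposite directions in cluster 1 and in the same direction in 6 other clusters. They were also opposite in cluster 7, but *Meg3* had only 3 UMIs there, a ratio of 0.319 (0.0656 to 0.937).

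**Figure D3:**
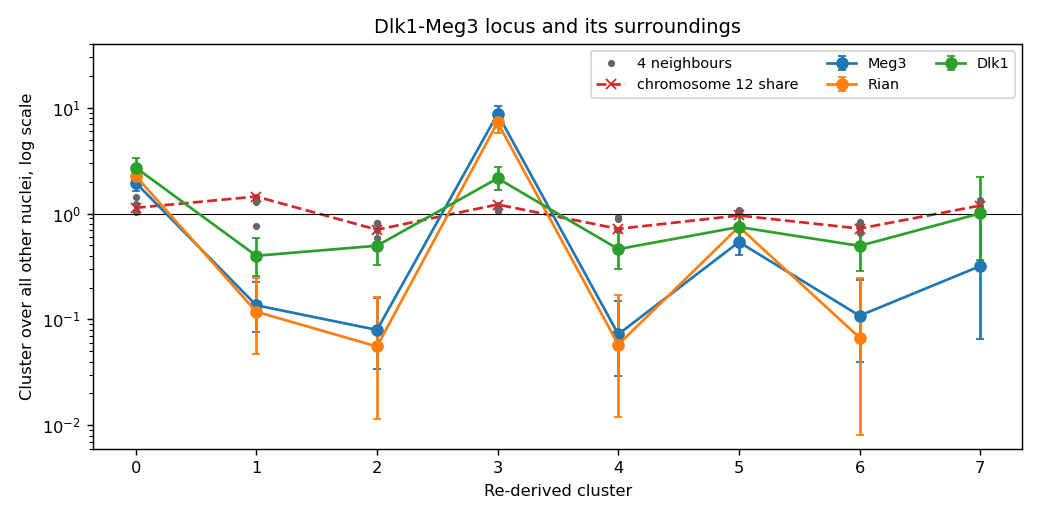
Level in each re-derived cluster over that in all other nuclei, on a log axis, for Meg3, Rian and Dlk1 with 95% exact intervals, for 4 neighbouring genes and for the share of UMIs on chromosome 12 without listed imprinted genes. Rian has no point in cluster 7, where it had 0 UMIs. The 3 members range from 0.0555 to 8.75, while the chromosome stays between 0.704 and 1.45.

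In single nuclei, *Meg3* and *Rian* were found together more often than their shares would give if they were independent. Of 8760 thinned nuclei, 175 had *Meg3* and 91 had *Rian*, and 19 had both where 1.82 would be expected. This is 10.5 times (6.29 to 16.3) the expected number. Within clusters, where both RNAs are either frequent or rare together, 5.39 nuclei would be expected, and the excess was 3.53 times (2.12 to 5.51). Without thinning, 107 nuclei had both, against 12.5 expected over all nuclei and 28.4 within clusters, which is 3.77 times (3.09 to 4.56). Of the nuclei with *Rian*, 41.0% (35.0 to 47.2) also had *Meg3*, and of those with *Meg3*, 25.1% had *Rian*. The same was seen inside cluster 0, with 31 nuclei against 7.14 expected, and inside cluster 3, with 60 against 19.1, both without thinning. In cluster 5 there were 10 against 2.08. Clusters 1 and 2 had 2 such nuclei each and clusters 4 and 6 had 1 each, against 0.0175 to 0.0185 expected, counts too small to give a firm ratio.

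*Mirg* was too rare for a firm value. Of its 23 nuclei before thinning, 9 had *Rian* (39.1%, 19.7 to 61.5) and 7 had *Meg3* (30.4%, 13.2 to 52.9), against 0.673 and 1.10 nuclei expected. Across the culture, 592 nuclei (6.64%) had at least 1 UMI of the 3 noncoding RNAs, from 0.577% of cluster 1 to 20.9% of cluster 3. High counts were rare, as 21 nuclei held 5 or more such UMIs and together 13.6% of all. Cluster 3 contributed 15 of these nuclei, clusters 0, 5 and 1 the other 3, 2 and 1, and the highest nucleus held 13 such UMIs.

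*Dlk1* went with the noncoding RNAs of its locus less clearly. It was found with *Meg3* in 8 nuclei against 2.68 expected, or 2.99 times (1.29 to 5.89), and within clusters 1.68 times (0.724 to 3.30), an interval that includes 1. For *Dlk1* and *Rian* the values were 4 nuclei against 1.39, or 2.87 times (0.783 to 7.36), and within clusters 1.60 times (0.436 to 4.09). Before thinning, 315 nuclei had *Dlk1* and none of the 3 noncoding RNAs, while 27 had it with *Meg3* alone, 8 with *Rian* alone and 10 with both. As a measure of what members of different loci give, the 20 pairs with at least 1 nucleus expected ran from 0 to 2.66 times, with a median of 0.998, and within clusters from 0 to 1.95 with a median of 0.983. The ratio cannot exceed 1 over the larger of the 2 shares. Pairs with *Peg3* (36.2% of nuclei) or *Igf2r* (17.4%) therefore could not reach the 10.5 of *Meg3* and *Rian*. Among the 20, pairs without *Peg3* and *Igf2r* ran from 0 for *Rian* and *Grb10*, with 1.28 expected, to 2.66 for *Dlk1* and *Grb10* (0.863 to 6.20).

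**Figure D4:**
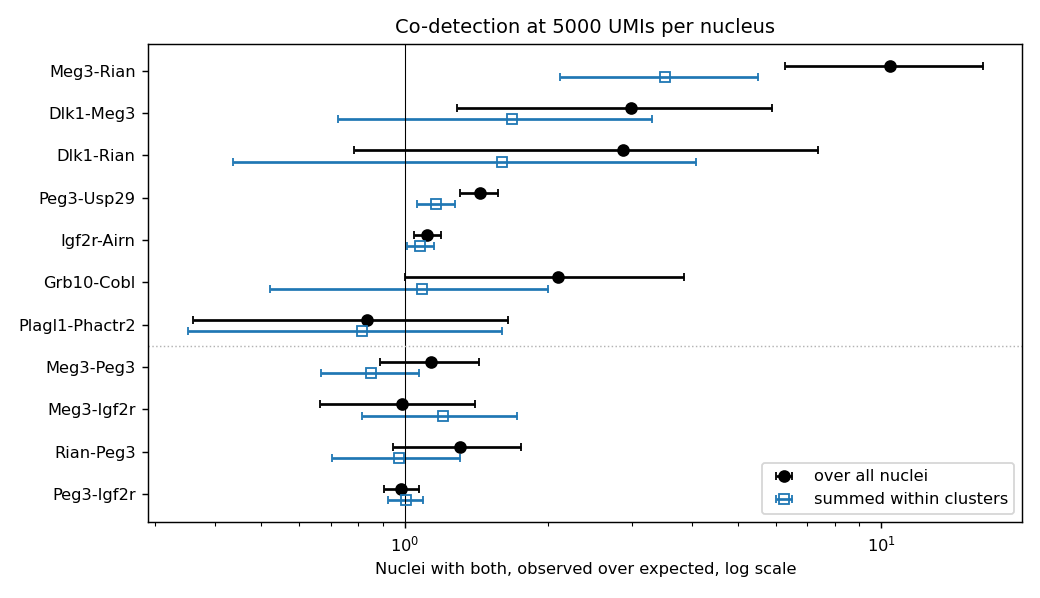
Number of nuclei with both genes over the number expected from their 2 shares, on a log axis, with 95% exact Poisson intervals, in nuclei thinned to 5000 UMIs. Circles use shares over all nuclei and squares sum the expected number within re-derived clusters. Pairs above the dotted line lie in 1 locus and those below it in different loci. Meg3 and Rian stand highest at 10.5 and 3.53. The ratio cannot exceed 1 over the larger of the 2 shares, so pairs with Peg3 or Igf2r could not reach 10.5. The 20 pairs of different loci with at least 1 nucleus expected, not all drawn, spread from 0 to 2.66 around a median of 0.998.

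*Peg3* lies on the minus strand of chromosome 7 (6706882 to 6733468). From cluster 0 to 7 its levels were 170.5, 96.5, 48.5, 155, 51.5, 96.4, 72.4 and 70.8 CPM. Clusters 0 and 3 were the highest, clusters 2 and 4 the lowest, and the highest level was 3.51 times the lowest (3.28 to 3.77). At 5000 UMIs *Peg3* was found in 53.6% of the nuclei of cluster 0 and 48.7% of cluster 3, against 20.4% of cluster 2 and 22.6% of cluster 4. Here the clusters with most *Peg3* were those with most *Meg3* and *Dlk1*. In thinned single nuclei the pairs with *Peg3* had intervals that included 1. They were 1.14 times for *Meg3* (0.889 to 1.43), 1.30 for *Rian* (0.944 to 1.76) and 1.24 for *Dlk1* (0.944 to 1.59). Without thinning, where nuclei also differ in depth, they were 1.25 (1.12 to 1.39), 1.25 (1.08 to 1.43) and 1.26 (1.12 to 1.42). As *Peg3* was found in 36.2% of nuclei, the ceiling of these ratios is low.

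*Usp29*, a paternally expressed gene that starts on the other strand next to *Peg3*, followed it across the clusters. It was at 23.0 CPM in the library and at 52.4, 18.5, 5.72, 38.9, 5.72, 20.8, 9.08 and 12.9 CPM from cluster 0 to 7. Cluster 0 held the highest level of both genes, and clusters 2 and 4 the lowest levels of both. In thinned nuclei *Peg3* and *Usp29* were found together 466 times against 324 expected, or 1.44 times (1.31 to 1.57), and within clusters 1.17 times (1.06 to 1.28). *Zim1* of the same locus had 174 UMIs and *Zfp264* 0. Around the locus 1 protein-coding gene that is not listed as imprinted reached 20 CPM within 1000 kb, *Clcn4*, and it ran from 0.321 times the other nuclei in cluster 1 to 1.30 times in cluster 3. The share of chromosome 7 stayed between 0.946 and 1.08.

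*Igf2r* lies on the minus strand of chromosome 17 (12901293 to 12988614) and had another pattern. Its levels from cluster 0 to 7 were 28.5, 76.2, 31.6, 31.5, 25.2, 34.6, 25.8 and 68.0 CPM. Clusters 1 and 7 stood apart from the other 6, whose intervals all lay below those of both, and the highest was 3.02 times the lowest (2.73 to 3.35). At 5000 UMIs 30.7% of the nuclei of cluster 1 and 29.6% of cluster 7 had *Igf2r*, against 12.6% to 15.5% in the others. In cluster 1 *Igf2r* was at 2.50 times the other nuclei (2.36 to 2.65), where 4.79% of the 7355 genes with at least 20 CPM were more than 2-fold higher. Cluster 1 was also the lowest for the marker lists of OPCs, at 1808 CPM against 5369 in the library, of neurons, at 36.3 CPM against 124, and of oligodendrocytes, at 32.0 CPM against 163. It was the highest for the choroid or ependymal list, at 10.5 CPM against 3.81. In the library *Foxj1* alone gave 3.56 of these 3.81 CPM, and *Ttr* gave 0.205. The part of these lists in the level of *Igf2r* was not tested. The 6 protein-coding genes with at least 20 CPM that start within 500 kb ran in cluster 1 from 0.679 for *Acat2* to 1.11 for *Wtap*, with a median of 0.850. Within 1000 kb there were 8, and the highest was *Afdn* at 1.53, with the same median. In cluster 7, where *Igf2r* was at 1.83, these 8 ran from 0.632 for *Acat2* to 1.45 for *Agpat4*, with a median of 0.855. The share of chromosome 17 in cluster 1 was 1.00.

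*Airn*, the paternally expressed RNA that starts inside *Igf2r* and runs antisense to it, was the more abundant of the pair, with 184 CPM or 1.55 CPM per kb of span against 0.432 for *Igf2r*. From cluster 0 to 7 it was at 120, 252, 230, 117, 186, 185, 196 and 272 CPM. Both were highest in clusters 1 and 7, but *Airn* was also high in cluster 2 at 1.30 times the other nuclei, where *Igf2r* was at 0.815 (0.750 to 0.886). In thinned nuclei they were found together 1.12 times (1.05 to 1.19) as often as their shares would give, and within clusters 1.08 times (1.01 to 1.15). The study states that the default pipeline of Cell Ranger, the counting software, was used, without describing how it treats strand. How reads of the part where the 2 genes overlap were assigned was not checked. *Slc22a3*, a maternally expressed transporter gene of the same locus, had 98 UMIs, with 32 of them in cluster 7.

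*Grb10* lies on the minus strand of chromosome 11 (11880498 to 11988683) and was concentrated in the smallest cluster. From cluster 0 to 7 it was at 2.18, 0.181, 2.17, 6.26, 0.562, 1.89, 1.09 and 28.2 CPM, from 56, 4, 44, 104, 11, 43, 13 and 61 UMIs. In cluster 7 it was 14.3 times as high as in all other nuclei (10.6 to 18.9), and 14.0% of its thinned nuclei had *Grb10*, against 0.0587% in cluster 1 to 3.66% in cluster 3. Cluster 7 has 182 nuclei and was also the highest for the fibroblast or pericyte list, at 8.32 CPM over 8 genes. Each of these genes was under 1 CPM in the library. The cluster was the highest for the microglial list too, at 16.2 CPM against 7.36. In the library *P2ry12* alone gave 5.25 of these 7.36 CPM, and *C1qa* had no UMI. The part of these lists in the level of *Grb10* was not tested. The ratio of highest to lowest level was 156 (58.0 to 592), with 4 UMIs behind the lowest.

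The gene next to *Grb10* with at least 20 CPM, *Fignl1*, was at 0.685 times the other nuclei in cluster 7. Within 1000 kb there was also *Vwc2*, at 0.868 times in cluster 7. It was at 0.0810 times in cluster 1, where *Grb10* was at 0.0647, and at 0.438 times in cluster 3, where *Grb10* was at 3.36. *Cobl*, a listed neighbour expressed from the maternal allele in some tissues, was at 7.09 CPM in the library and was highest in cluster 3, at 27.9 CPM, not in cluster 7, at 5.55 CPM. The 2 genes of this locus thus had their highest levels in different clusters, although both were above their library level in cluster 3. In thinned nuclei they were found together 10 times against 4.77 expected, or 2.09 times (1.00 to 3.85), and within clusters 1.09 times (0.521 to 2.00).

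**Figure D5:**
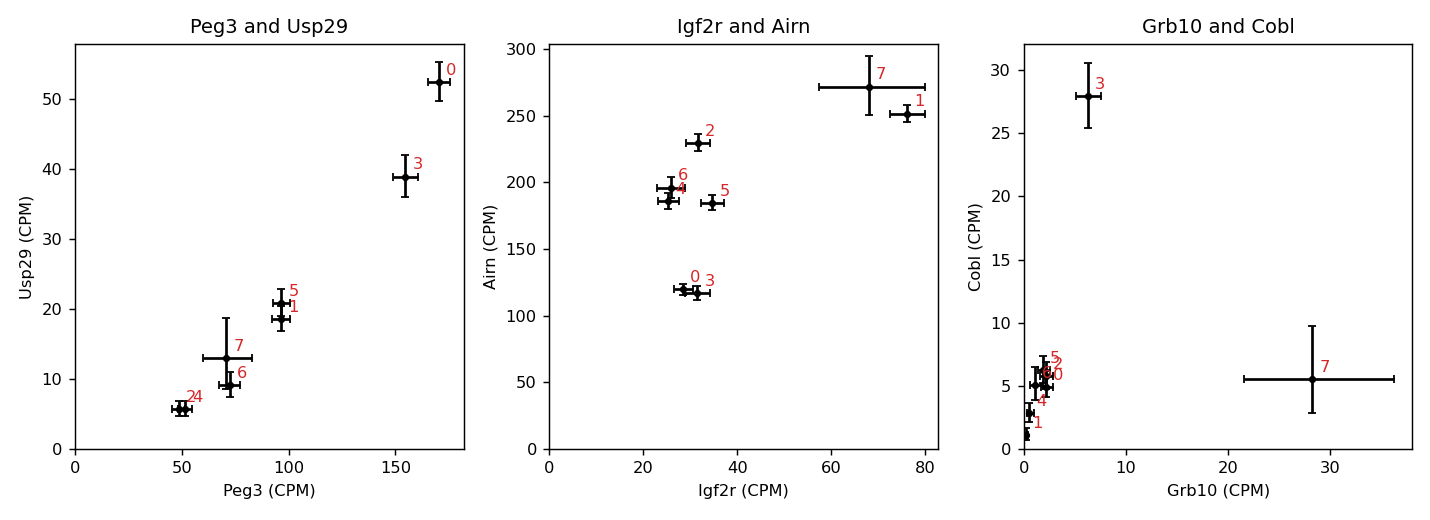
Levels of Peg3 and Usp29, Igf2r and Airn, and Grb10 and Cobl in the 8 re-derived clusters, in CPM on linear axes, with 95% exact Poisson intervals. Red digits are cluster numbers. Peg3 and Usp29 rank the clusters almost alike, Airn is high in cluster 2 where Igf2r is not, and Grb10 and Cobl peak in clusters 7 and 3.

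*Plagl1*, on the plus strand of chromosome 10 (12936248 to 13007438), varied least in this clustering. From cluster 0 to 7 it was at 4.05, 4.11, 3.21, 4.15, 2.20, 3.38, 3.95 and 2.31 CPM, and the highest was 1.89 times the lowest (1.27 to 2.84). With at most 5% mitochondrial UMIs this ratio was 4.80 (1.38 to 17.3), above those of *Peg3* and *Igf2r* under the same cutoff, and with 20 neighbors in the clustering it was 3.34 (1.02 to 11.7). Only cluster 4, at 0.583 times the other nuclei (0.416 to 0.798), had an interval of its ratio that excluded 1. *Plagl1* was found with its listed neighbour *Phactr2* 0.835 times (0.360 to 1.64) the expected number.

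The clusters differed in sex-linked transcripts, which bears on the values above. At 5000 UMIs 93.7% of the nuclei of cluster 1 had *Xist*, and 66.8% of cluster 3 and 30.9% of cluster 0 had a UMI of 1 of 4 Y-linked genes. Over the culture 1660 nuclei had Y-linked UMIs only, 1881 had *Xist* only, 5124 had neither and 95 had both. *Meg3* was at 12.1 CPM in the first and 0.688 CPM in the second, a ratio of 17.6 (11.1 to 29.7). The same ratio was 14.2 (8.22 to 26.5) for *Rian*, 6.03 (3.76 to 10.1) for *Grb10*, 3.16 (2.22 to 4.57) for *Dlk1* and 1.54 (1.46 to 1.62) for *Peg3*. It was 0.442 (0.406 to 0.482) for *Igf2r* and 1.03 (0.777 to 1.37) for *Plagl1*. In the 5124 nuclei with neither, *Meg3* was at 3.24 CPM. *Igf2r* was there at 29.5 CPM, against 30.4 CPM with Y-linked UMIs only and 68.8 CPM with *Xist* only. Clusters 2, 4 and 6 had few nuclei with either, with *Xist* in 0.885% to 1.81% and Y-linked UMIs in 2.58% to 5.33%. These transcripts thus do not give the sex of every nucleus. Most *Xist* nuclei are in cluster 1, so the sex of the pup and the cluster cannot be told apart here. In clusters 3 and 0, 1.30% and 2.08% of the nuclei had *Xist*, so the 2 kinds of nuclei were not compared within them. Nor were they in cluster 5, which had both kinds (*Xist* in 36.7%, Y-linked UMIs in 22.8%). Nuclei with Y-linked UMIs only were set against those with neither in clusters 0 and 3. The ratio was 1.03 (0.740 to 1.43) and 1.04 (0.814 to 1.33) for *Meg3*. For *Rian* it was 1.67 (1.11 to 2.49) and 1.41 (0.972 to 2.08), and for *Grb10* 1.13 (0.594 to 2.06) and 1.72 (1.06 to 2.89). For *Peg3* it was 1.12 (1.05 to 1.20) and 0.998 (0.917 to 1.09). In clusters 4 and 5 the same ratio of *Peg3* was 1.60 (1.24 to 2.05), from 53 nuclei with Y-linked UMIs only, and 1.06 (0.938 to 1.19).

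Nuclei with a UMI of the proliferation genes *Top2a* or *Mki67* (7543 of 8760) were set beside the 1217 without. *Grb10* was at 2.09 CPM with and 4.68 CPM without, a ratio of 0.447 (0.342 to 0.592), and *Meg3* was at 4.13 and 5.42 CPM, a ratio of 0.761 (0.600 to 0.976). *Peg3* was slightly higher with these UMIs, at 1.08 times (1.02 to 1.14). The intervals of *Dlk1*, *Rian*, *Igf2r* and *Plagl1* included 1. Nuclei with a proliferation UMI also had more UMIs, with a median of 14499 against 11075. The clusters differed in the share of such nuclei, with 68.2% in cluster 2 and 69.8% in cluster 7, against 98.4% in cluster 4 and 99.7% in cluster 6. *Grb10* was highest in cluster 7 and low in clusters 4 and 6. The groups were not compared within clusters, so proliferation and cluster cannot be told apart in these ratios.

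The share of mitochondrial UMIs also moved with these levels. A cutoff on it may have been part of the filter behind the smaller set of nuclei that the study kept, although its methods do not state one. The 1954 nuclei with at most 5% mitochondrial UMIs came mostly from clusters 0 (35.6%) and 3 (30.6%). Over these nuclei *Meg3* was at 8.04 CPM, *Rian* at 4.39, *Dlk1* at 4.35 and *Peg3* at 138 CPM, all above the values for 8917 nuclei, and *Igf2r* was at 35.3 CPM. Within cluster 3 the cutoff left the levels close to where they were, with *Meg3* at 19.8 and *Rian* at 10.4 CPM, and within cluster 0 at 7.51 and 4.08 CPM. Cluster 5 had the deepest nuclei, with a median of 30276 UMIs, and *Xist* in 36.7% and Y-linked UMIs in 22.8% of them. No nuclei were removed as doublets. Without cluster 5, *Meg3* was at 4.65 CPM and its co-detection with *Rian* at 10.7 times the expected number.

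The genes with counts most like those of *Peg3* over 8760 thinned nuclei were *Brinp3* (Pearson r of log1p counts 0.233), *Nalf1* (0.164) and *Sox9* (0.155), and for *Igf2r* they were *Xist* (0.173), *Igfbp2* (0.165) and *Vav3* (0.158), among 7132 genes found in at least 10% of nuclei. All of these are weak correlations in sparse counts of 1 library, and no member of the list was among them.

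Of 55 other listed imprinted genes in the matrix, 24 reached 20 CPM, 22 were under 1 CPM and 3 were listed at 0 (*Zfp264*, *Snurf* and *Klf14*). *Snurf* lies inside *Snrpn* on the same strand. The highest were *Gnas*, which encodes a G protein subunit, at 528 CPM, *Cd81* at 274, *Ube3a* at 248, *Inpp5f* at 235 and *Kcnq1ot1* at 234 CPM. *Peg3* at 101 CPM and *Igf2r* at 37.7 CPM lay inside the range of these 24 genes, and the 6 other members with UMIs below it. Cluster 1, where *Igf2r* was highest, also held the highest levels of *Mest* (453 CPM, against 177 in the library) and *Peg10* (126 CPM, against 39.2), both paternally expressed genes. Of the 24 genes, 4 were more than 2-fold higher in cluster 1, against 4.79% of the 7355 genes with at least 20 CPM, and 3 were more than 2-fold lower, against 8.61%. The lower ones were *Inpp5f*, *Snhg14* and *Snrpn*, with *Snrpn* at 24.7 CPM against 84.6 in the library. Cluster 3, where *Meg3* was highest, was also the highest for *Nnat*, at 153 CPM, and for the growth inhibitor *Cdkn1c*, at 6.74 CPM against 1.24 in the library. *Cdkn1c* overlaps another annotated gene on its strand.

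The 24 genes were read against the same 7355 genes in the other clusters. More than 2-fold higher was *Usp29* in cluster 0, against 0.394% of genes, and *Nnat* in cluster 3, against 1.41%, while none of the 24 was higher in clusters 2 (0.421%), 4 (0.204%), 6 (0.381%) or 7 (3.05%). *Mest* and *Peg10* were more than 2-fold lower in cluster 3, against 2.42% of genes. Both were also lower in clusters 2, 4 and 6, together with *Usp29*, against 3.32%, 2.3% and 1.73% of genes, and in cluster 4 *Atp10a* was lower too. In cluster 7 the lower genes were *Peg10*, *Sgce*, *Snhg14* and *Snrpn*, against 3.41%, and in cluster 0 there were none, against 1.9%. Among the same genes *Igf2r* was the 1 member past 2-fold upward, in cluster 1, and *Peg3* the 1 member past 2-fold downward, in clusters 2 and 4.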

How the data were processed

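Nuclei of cultured BB-p53n OPCs were profiled by snRNA-seq in 1 library (10x 3′ chemistry). Per the labels and the methods of the study, the authors aligned and called barcodes with Cell Ranger 8.0.1 and mm39, and that matrix of UMI counts was deposited without normalization. The study states that the default pipeline was used. How it counts introns, strand and reads shared by genes is not described in the sources used here. The 6 tumor libraries were not analysed here. Members and lists were chosen with earlier results of these data known.

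Barcodes with 2000 to 8000 detected genes were kept. The study lists fewer nuclei after filtering than the 8917 that these cutoffs leave. Its number equals the 1954 that remained here when at most 5% mitochondrial UMIs were also required, a cutoff its methods do not state, so values under it may be those of the study's own nuclei. Gene positions came from GENCODE on GRCm39, the build of the files, which matched 33185 of 33696 genes by identifier. Summed UMIs gave CPM with exact Poisson intervals, shares with exact binomial (Clopper-Pearson) intervals, and ratios with exact conditional intervals, all at 95%, in Python 3.11.15 with scipy 1.17.1. Depth was 3153 to 52240 UMIs per nucleus and 2162531 UMIs in the smallest cluster. Nuclei were thinned to 5000 UMIs for shares and co-detection. Clustering used Seurat 5.3.0 in R 4.3.3 (scale factor 1000, 3000 variable genes, total counts regressed out, 20 principal components, 200 neighbors, resolution 1). With 1 library no test was run. No doublet caller was run. The functions were tested on simulated data.

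Named were the 10 members, other listed imprinted genes at 20 CPM or more, past 2-fold in a cluster or at 0, the neighbours with the lowest and highest ratio, the 3 genes most correlated with members found in at least 10% of thinned nuclei, summed marker lists and 4 promoters. *Cdkn1c*, *Cobl*, *Slc22a3*, *Zim1*, *Rtl1*, *Dio3*, *Begain* and *Phactr2* were added as genes of the same loci or after their values were seen. The window of 1000 kb and the removal of cluster 5 were also chosen after seeing the data.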

Additional observations from a re-analysis of the deposited data

Results flagged for a closer look

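Barcodes outside the cutoffs on detected genes were used in no comparison, and 7 members had UMIs there above the limit that a count of 0 allows. Over these 1130 barcodes *Peg3* was at 105 CPM, *Igf2r* at 35.8 CPM, *Meg3* at 5.36 CPM, *Plagl1* at 3.10 CPM and *Dlk1* at 2.64 CPM. *Rian* and *Grb10* were both at 1.89 CPM. In the 918 barcodes with under 2000 detected genes, *Igf2r* was at 92.8 CPM (79.1 to 108) and *Meg3* at 11.4 CPM (6.95 to 17.6), both above the kept nuclei, while *Peg3* at 101 CPM (86.4 to 117) was not. The cause was not tested. With 1 library no group of samples could be searched for one that stands apart.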

How the results depend on the processing

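No paired analysis was possible because only 1 library was analysed. Each result was recomputed under alternatives set with earlier results known, and 145 values were obtained in all. With at most 5% mitochondrial UMIs the level of *Peg3* was 138 CPM and that of *Meg3* 8.04 CPM, and the shares at 5000 UMIs were 44.7% and 3.93%. The ratio of highest to lowest cluster was then 19.2 for *Meg3*, 3.21 for *Peg3*, 3.79 for *Igf2r* and 45.0 for *Grb10* (clusters with no UMI of a gene are left out of its ratio), and the co-detection of *Meg3* and *Rian* was 4.82 times the expected number. Leaving mitochondrial UMIs out of the total gave *Peg3* 108 CPM. Shares followed the depth by construction. *Peg3* was found in 17.9% of nuclei at 2000 UMIs, 53.7% at 10000 and 64.5% without thinning, and *Meg3* in 0.729%, 3.32% and 4.79%. With 20 neighbors, which gave 16 clusters, the ratio was 4.77 for *Peg3*, 3.60 for *Igf2r* and 11.2 for *Dlk1*, with a resolution of 0.5 it was 2.67 for *Igf2r*, and with median-of-ratios size factors 2.62 for *Igf2r*. Co-detection of *Meg3* and *Rian* was 3.53 with the expected number summed over clusters, 3.77 with that and no thinning (chosen after seeing the data), and 0 at a minimum of 2 UMIs, where 0.0171 nuclei were expected. Clustering without the imprinted genes or without chromosomes 12, X and Y kept these 4 ratios within the counting interval. Of the other alternative values, 56 stayed within the counting interval of the value reported and 35 did not, and no value could change sign. Depth limits *Mirg* (23 UMIs), *H19* and *Igf2*, and the co-detection of *Dlk1*.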
